A study of Homo sapiens with 3 samples.

Results

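MHC class I genes and the genes that load peptide onto class I molecules were followed through single-cell RNA libraries of a colorectal cancer line. The 9 genes were chosen by symbol: the heavy chain genes HLA-B, HLA-C, HLA-E and HLA-F, the light chain gene B2M, the peptide transporter genes TAP1 and TAP2, the tapasin gene TAPBP and the transactivator gene NLRC5. They are 9 of the 19912 genes in the count matrices, and all 9 were detected in every library. The cells were HCT116, an established human colorectal carcinoma line, carrying an H2B-GFP nuclear label. They had grown in an organ-on-chip, a microfluidic culture device with a top and a bottom channel, and were sorted for GFP. The labels give 3 groups: stretched chips (+peristalsis), top channel, non-invaded cells; not stretched chips (-peristalsis), top channel, non-invaded cells; and stretched chips, bottom channel, invaded cells. Stretch had lasted 6 days. A bottom-channel library without stretch was not analysed here, so whether a difference between channels depends on stretch cannot be told, and channel and invasion cannot be told apart. Each group had 1 library, so no comparison has a replicate check or a test, and every interval below covers counting error only.

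After filtering, 17206 cells remained in the not stretched top library, 20121 in the stretched top library and 1951 in the stretched bottom library, with 76641034 to 212503735 UMIs (unique transcript counts) per library. The bottom cells were much deeper, with a median of 40387 UMIs against 10964 and 9384 in the not stretched and stretched top cells. Their median mitochondrial share was 4.09%, against 9.64% and 10.4%. The epithelial marker EPCAM stood at 386, 389 and 501 CPM (counts scaled to the library total) in the order not stretched top, stretched top, stretched bottom, and 11 of 12 epithelial markers were at 1 CPM or more in each library. The 12 leukocyte markers, from cells that are rich in class I transcripts, summed to 7.62, 6.86 and 5.43 CPM, with CD3E and MS4A1 at 0 in the bottom library. The 10 fibroblast markers summed to 8.96, 5.81 and 4.54 CPM, and DCN, POSTN and PDGFRA were each at 0 in at least 1 library. Of 12 endothelial markers 2, 2 and 7 reached 1 CPM. Their sums were 129, 105 and 129 CPM, of which EGFL7 gave 123, 101 and 118 CPM, and CLDN5 was at 0 in the stretched top library. Of kept barcodes, 88 were shared by the top libraries, 6 by the not stretched top and bottom libraries, and 9 by the stretched top and bottom libraries.

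Nearly every nucleated cell displays fragments of its own proteins on class I molecules, which CD8 T cells inspect and natural killer cells sense. Proteasomes cut the fragments, the TAP1 and TAP2 transporter carries them into the endoplasmic reticulum, and tapasin holds empty class I molecules at the transporter until a peptide binds. Each complete molecule pairs a heavy chain with the light chain β2-microglobulin, the product of B2M. NLRC5 activates transcription of these genes as a group, and interferons raise them through response elements in their promoters. Loss of this pathway is well known in colorectal cancer, above all in mismatch repair deficient tumors.

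The promoters are shown because the genes differed together between libraries and are known for shared interferon elements. RefSeq promoter sequences (GRCh38.p14, from 250 bases before to 50 after the transcription start) were found for 7 of the 9 genes, HLA-B, HLA-C, HLA-F, B2M, TAP1, TAP2 and TAPBP. The 250 bases before the start of 5 of them follow, 5′ to 3′ on the gene's own strand. They lie on the minus strand at chr6:31357180-31357429 for HLA-B, at chr6:31272093-31272342 for HLA-C, at chr6:32853705-32853954 for TAP1 and at chr6:33314079-33314328 for TAPBP, and on the plus strand at chr15:44711267-44711516 for B2M. Capitals mark each match, on either strand, of AANNGAAA, the short core that interferon-responsive elements have in common.
HLA-B: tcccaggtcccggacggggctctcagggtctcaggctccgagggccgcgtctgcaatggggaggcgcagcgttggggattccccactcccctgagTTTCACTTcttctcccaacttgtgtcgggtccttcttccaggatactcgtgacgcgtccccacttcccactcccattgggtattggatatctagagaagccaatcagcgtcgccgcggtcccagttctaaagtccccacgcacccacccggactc
HLA-C: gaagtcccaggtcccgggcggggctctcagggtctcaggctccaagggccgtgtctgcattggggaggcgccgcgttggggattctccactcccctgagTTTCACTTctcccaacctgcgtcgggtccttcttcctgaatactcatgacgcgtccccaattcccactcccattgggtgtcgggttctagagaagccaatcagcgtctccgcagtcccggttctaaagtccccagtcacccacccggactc
B2M: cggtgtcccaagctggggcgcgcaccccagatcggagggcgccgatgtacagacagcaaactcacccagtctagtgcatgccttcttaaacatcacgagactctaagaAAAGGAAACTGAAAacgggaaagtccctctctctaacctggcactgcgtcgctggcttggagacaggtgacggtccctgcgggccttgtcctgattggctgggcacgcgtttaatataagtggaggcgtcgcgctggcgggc
TAP1: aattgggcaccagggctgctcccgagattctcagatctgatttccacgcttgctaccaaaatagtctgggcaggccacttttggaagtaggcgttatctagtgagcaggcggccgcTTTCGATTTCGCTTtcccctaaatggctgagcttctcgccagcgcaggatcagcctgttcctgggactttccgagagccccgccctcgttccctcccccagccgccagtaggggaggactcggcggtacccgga
TAPBP: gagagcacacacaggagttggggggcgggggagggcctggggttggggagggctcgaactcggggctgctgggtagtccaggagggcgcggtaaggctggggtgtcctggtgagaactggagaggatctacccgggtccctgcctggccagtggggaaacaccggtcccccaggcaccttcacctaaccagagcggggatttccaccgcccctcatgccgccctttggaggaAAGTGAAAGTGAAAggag

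All 7 promoters held AANNGAAA within the 300 bases, against 22.8% of 35116 promoters of the same length, but that motif was chosen after these sequences had been read. The core of the interferon-stimulated response element, which is GAAA repeated after a gap of 2 bases, was found in 5 of 7 (HLA-F, B2M, TAP1, TAP2 and TAPBP), against 3.57% of all promoters. In B2M, TAP1 and TAPBP it occurred in 2 overlapping copies. In HLA-B and HLA-C the capitals mark 1 copy of the shorter core, 155 and 151 bases before the start. CCAAT was present in 5 of 7 promoters against 34.6% of all, and TGACG, the core of the cyclic AMP response element, in 4 of 7 against 24.6%. The GC box GGGCGG was found in 4 of 7 against 45.0%, an NF-kB-like motif in 6 of 7 against 58.7% and the TATA box TATAAA in 1 of 7 against 11.5%. The motif TTCNNNGAA, known as the interferon-gamma activated site, was found in 0 of 7 against 7.66% of all. A match is a stretch of letters and not a measured binding site. Both strands were searched, every AANNGAAA match marked in B2M, TAP1 and TAPBP overlaps a match of that longer core, and no binding data entered these counts.

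The heavy chain genes encode the part of the molecule that holds the peptide. HLA-B (ENSG00000234745, chromosome 6, 31269491 to 31357188, hg38) stood at 301 CPM (95% interval 299 to 303) without stretch, 261 CPM (259 to 263) in stretched top cells and 105 CPM (103 to 107) in stretched bottom cells. HLA-C (ENSG00000204525, chromosome 6, 31268749 to 31272130), the classical chain best known as a ligand of killer cell receptors, stood at 381, 298 and 159 CPM in the same order. Both genes were lowest in the bottom library. HLA-E (ENSG00000204592, chromosome 6, 30489467 to 30494205), a nonclassical chain that presents leader peptides of other class I proteins to the natural killer receptor NKG2A, stood at 134, 94.6 and 67.6 CPM. HLA-F (ENSG00000204642, chromosome 6, 29722775 to 29738528), a nonclassical chain that can reach the cell surface without peptide, stood at 23.7, 15.1 and 6.24 CPM. These nonclassical genes showed the same order of libraries. For each heavy chain gene the intervals of the 3 libraries did not overlap. At such counts these intervals are narrow, and how many of all genes were separated likewise was not counted.

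B2M (ENSG00000166710, chromosome 15, 44711487 to 44718877) stood at 1528 CPM (1522 to 1533) without stretch, 1321 CPM (1316 to 1326) in stretched top cells and 701 CPM (695 to 707) in bottom cells. It lies on another chromosome than the heavy chains and followed the same order. TAP1 (ENSG00000168394, chromosome 6, 32845209 to 32853978) stood at 37.8, 31.2 and 15.5 CPM, and its partner TAP2 (ENSG00000204267, chromosome 6, 32821833 to 32838780) at 39.6, 29.1 and 18.6 CPM. TAPBP (ENSG00000231925, chromosome 6, 33299694 to 33314387) stood at 69.6, 61.8 and 36.4 CPM. Transporter and tapasin transcripts were thus lowest in the bottom library too. NLRC5 (ENSG00000140853, chromosome 16, 56989485 to 57083531) stood at 13.9 CPM (13.4 to 14.4), 10.4 CPM (9.98 to 10.9) and 2.79 CPM (2.43 to 3.19), the last from 214 UMIs. The plot of levels by library shows the same order, not stretched top above stretched top above stretched bottom, for all 9 genes. How many of all genes had this order of levels was not counted.

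**Figure D1:**
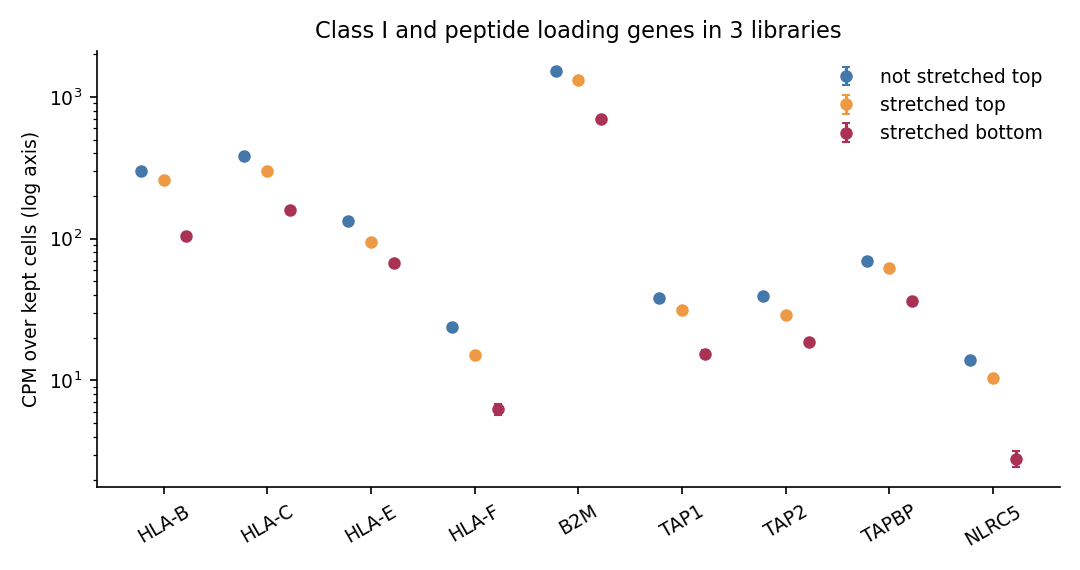
Level of each of the 9 genes (CPM over kept cells, log axis) in the 3 libraries, with bars for the exact Poisson 95% interval of the count, mostly smaller than the points. Every gene ran from the not stretched top library (B2M 1528 CPM, NLRC5 13.9 CPM) through the stretched top to the stretched bottom library (B2M 701 CPM, NLRC5 2.79 CPM).

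Counts of several of these genes are uncertain because related or overlapping genes could take some reads. In GENCODE release 29, 49.1% of the 50-base windows in the last 1000 transcript bases of TAP2 also occur in an overlapping gene, AL669918.1, which is in the matrices at 0.0901 to 0.132 CPM. For HLA-C that share is 8.41%, for HLA-F 2.84%, for HLA-B 2.00% and for TAP1 0.736%, in each of the HLA genes mostly shared with other HLA genes. No such window was found for HLA-E, B2M, TAPBP or NLRC5. The classical genes HLA-B and HLA-C are also highly polymorphic, and the alleles of this line were not examined. The gene model of HLA-B in that release overlaps most of HLA-C on the same strand. The release used to make the counts is not given in the sources used here.

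Stretched cells of the top channel were first set against unstretched ones, which addresses what stretch does to cells that stay in the top channel. All 9 genes were lower with stretch, by between 1.13-fold for TAPBP (1.10 to 1.15) and 1.57-fold for HLA-F (1.5004 to 1.64). HLA-E was 1.42-fold lower (1.39 to 1.45), TAP2 1.36-fold, NLRC5 1.34-fold and HLA-C 1.28-fold. B2M was 1.16-fold lower and HLA-B 1.15-fold lower. The ratios of TAPBP, HLA-B and B2M were ordinary among all tested genes, of which 46.4%, 37.2% and 35.6% had a lower ratio. In cells of 1000 to under 5000 UMIs the direction turned for some genes. There the sum of the 9 was higher with stretch, at 2694 against 2494 CPM, as were HLA-B (388 against 327 CPM) and B2M (1621 against 1440 CPM), beside a median mitochondrial share of 11.2% against 3.21%, whose part in this was not tested. In cells of 5000 to under 20000 UMIs the sum was 1.24-fold lower with stretch and in deeper cells 1.21-fold lower. With a difference called at 1.5-fold on log2(CPM + 1), for genes reaching 10 CPM in at least 1 of the libraries compared, 1 of 9 genes was called, HLA-F, against 0.592% of 9119 tested genes called lower and 0.175% called higher. The median log2 ratio of the 9 genes was −0.35 and that of all tested genes −0.16. HLA-F was short of 1.5-fold without a cell filter, with 5 CPM added, with TMM or median of ratios factors, and with library totals that leave out mitochondrial and ribosomal protein genes. With median of ratios factors HLA-B and B2M were each only 1.01-fold lower. Under TMM scaling the count over all genes turned from 54 lower and 16 higher to 10 lower and 70 higher, and TAPBP turned from −0.17 to just above 0, while the median of the 9 genes stayed below that of all genes (−0.18 against 0.02).

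Bottom cells were next set against stretched top cells, which addresses how invaded cells differ from those that stayed on top under stretch. NLRC5 was 3.73-fold lower in the bottom library (3.24 to 4.31), HLA-B 2.49-fold lower (2.43 to 2.55) and HLA-F 2.42-fold lower (2.20 to 2.67). TAP1 was 2.02-fold lower, B2M 1.88-fold, HLA-C 1.87-fold, TAPBP 1.70-fold and TAP2 1.57-fold. These 8 of 9 genes passed 1.5-fold, against 11.0% of 8870 tested genes called lower and 7.93% called higher. HLA-E, at 1.40-fold lower (1.36 to 1.44), did not. The median log2 ratio was −0.91 for the 9 genes and −0.00 for all tested genes. TAP2 was short of 1.5-fold under 6 alternatives and TAPBP under 2, in cells of 20000 to 60000 UMIs and with equal weights of the cell cycle phases. NLRC5 was under the 10 CPM minimum, and so not tested, with the stricter cell filter.

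The remaining comparison, of the bottom with the not stretched top library, shares a library with each of the other comparisons and is not independent of them. Here 9 of 9 genes passed 1.5-fold, against 20.7% of 9218 tested genes called lower and 6.80% called higher. NLRC5 was 4.98-fold lower (4.34 to 5.75), HLA-F 3.79-fold lower (3.45 to 4.18), HLA-B 2.87-fold and TAP1 2.45-fold lower. B2M was 2.18-fold lower and HLA-E 1.98-fold lower. The smallest of the 9 ratios was that of TAPBP, at 1.91-fold lower (1.84 to 1.99), and in cells of 20000 to 60000 UMIs it did not reach 1.5-fold. With a 2-fold threshold 7 genes passed, without HLA-E and TAPBP, where 6.65% of all tested genes were called lower. The median log2 ratio was −1.24, against −0.18 for all tested genes, whose split moved from 1910 lower and 627 higher to 1020 and 1355 under TMM scaling.

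**Figure D2:**
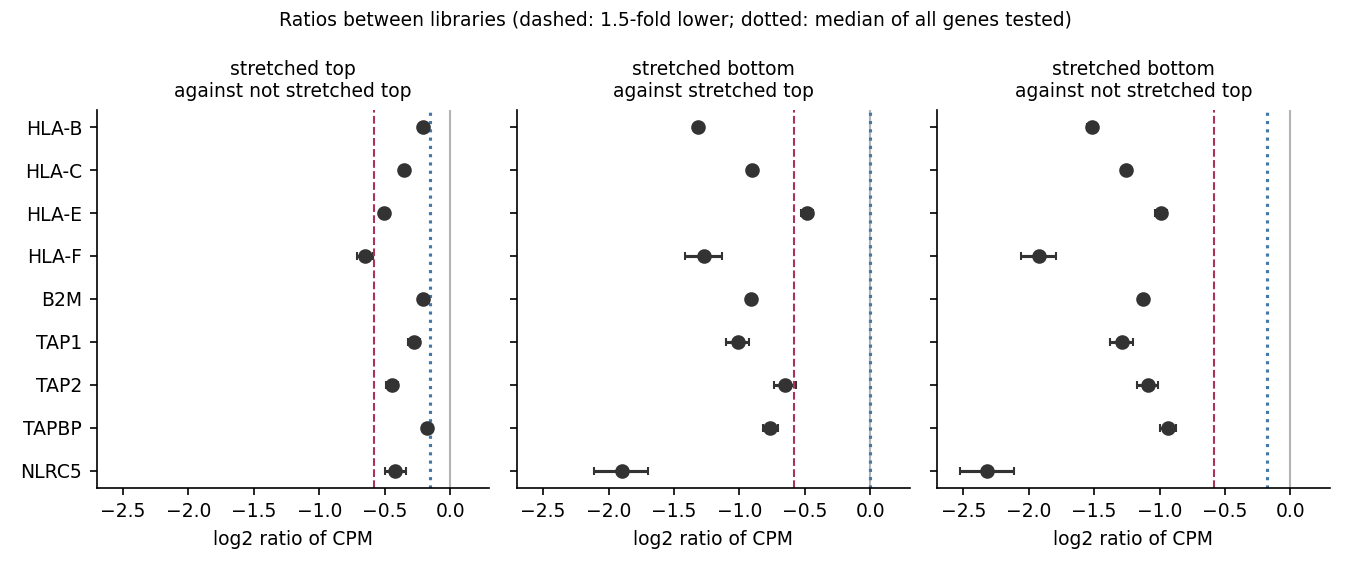
Log2 ratio of CPM (no CPM added) of each gene in the 3 comparisons, with exact conditional binomial 95% intervals. The dashed line marks 1.5-fold lower. The dotted line marks the median of all tested genes, which unlike the points was taken on log2(CPM + 1). Every gene lay to the left of 0, with HLA-E at 1.40-fold lower alone on the right of the dashed line in stretched bottom against stretched top.

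Summed over the 9 genes, UMIs made up 2528 CPM without stretch, 2122 CPM in stretched top cells and 1113 CPM in bottom cells. B2M alone gave 60.4%, 62.2% and 63.0% of the sum in that order, so the sum mostly follows B2M. The sum was 1.19-fold lower in the stretched top than in the not stretched top library, and 1.91-fold lower (1.89 to 1.92) in the bottom than in the stretched top library. Heavy chains and light chain were lower by similar factors. The 4 heavy chain genes together were 1.98-fold lower in the bottom than in the stretched top library (1.95 to 2.00), and B2M 1.88-fold (1.87 to 1.90). Heavy chain UMIs per B2M UMI were 0.550, 0.507 and 0.482 in the order not stretched top, stretched top, stretched bottom. The makeup of the heavy chain UMIs differed more. HLA-B gave 35.8%, 39.04% and 31.04% of them and HLA-E 15.98%, 14.13% and 19.997%, so within the heavy chains HLA-B had its smallest and HLA-E its largest share in the bottom library. HLA-C gave 45.4%, 44.6% and 47.1%, and HLA-F 2.82%, 2.25% and 1.84%. These 3′ counts are not divided by length, so the shares compare libraries and not genes.

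The bottom cells held more UMIs each, which raises the share of cells with at least 1 UMI of a gene, so shares are given with all UMIs and with every cell thinned to 3000 UMIs. With all UMIs, HLA-E was found in 70.5% of not stretched top, 56.3% of stretched top and 74.1% of bottom cells, and NLRC5 in 14.2%, 9.56% and 9.58%. After thinning, which left out 1507, 1205 and 242 shallower cells, HLA-E was found in 34.1%, 25.6% and 20.2% and NLRC5 in 3.97%, 3.13% and 1.05%. The unthinned order of HLA-E thus went against its CPM and NLRC5 was level between stretched top and bottom cells, while the thinned order of both followed the CPM. Thinned B2M was found in 95.4% of not stretched top, 94.1% (93.8 to 94.4) of stretched top and 81.5% (79.5 to 83.3) of bottom cells, against 95.9%, 97.0% and 91.1% with all UMIs. Thinned HLA-B was found in 56.9%, 52.1% and 27.2%, against 84.2%, 81.5% and 80.1% with all UMIs. Thinned HLA-C was found in 66.3%, 57.1% and 37.3%, against 88.7%, 85.9% and 84.4%. Among the classical chains the gap between bottom and top cells was therefore far wider once depth was equal.

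HLA-F was found in 7.52%, 4.62% and 2.28% of thinned cells, against 23.4%, 14.0% and 19.4% with all UMIs. TAP1 was found in 11.2%, 9.03% and 5.03% of thinned cells (33.3%, 25.7% and 39.4% with all UMIs), and TAP2 in 11.1%, 8.17% and 5.91% (34.6%, 24.3% and 44.1%). TAPBP was found in 20.2%, 17.8% and 11.6% of thinned cells (51.9%, 43.9% and 63.4%). The order not stretched top, stretched top, stretched bottom held for 9 of 9 genes at 3000 UMIs and for 8 of 9 at 8000 UMIs, where B2M was found in 99.5%, 99.6% and 97.5% of cells. How many of all genes had this order of shares was not counted. All cells are of 1 line, so no cell type lacking these genes gave a background share, and free RNA was not measured.

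The distribution over cells lay lower in the bottom library, at its low end, its middle and its high end. Per thinned cell, the 9 genes together gave a median of 7 UMIs without stretch (2 at the 5th and 18 at the 95th percentile), 6 in the stretched top library (1 and 15) and 3 in the bottom library (0 and 8). B2M gave a median of 4, 4 and 2 UMIs, and the 4 heavy chain genes 2, 2 and 1. At least 1 UMI of B2M together with at least 1 of a heavy chain was found in 84.9% of not stretched top, 78.1% of stretched top and 53.4% of bottom cells. Neither was found in 1.47%, 1.90% and 8.43%. At 3000 UMIs a cell with neither is not shown to lack class I transcripts. At 8000 UMIs at least 1 UMI of the 9 genes was found in 99.6% of bottom cells.

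**Figure D3:**
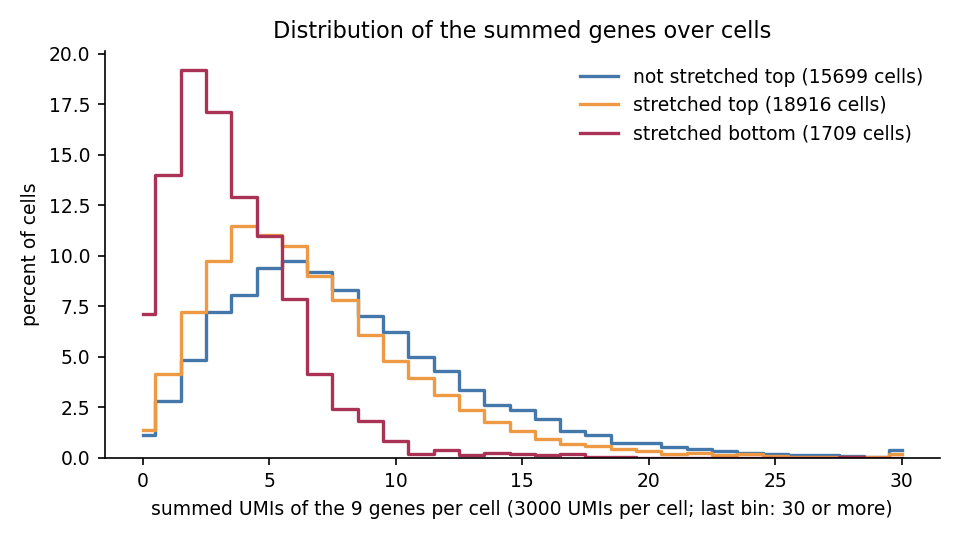
Percent of cells by summed UMIs of the 9 genes, each cell thinned to 3000 UMIs, in 15699 not stretched top, 18916 stretched top and 1709 stretched bottom cells. The bottom cells (median 3 UMIs) lie to the left of the stretched top (median 6) and not stretched top cells (median 7), with no separate peak of high cells.

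Across thinned cells of 1 library, the variance over mean of B2M was 2.65 without stretch, 2.45 on top with stretch and 1.76 in the bottom library, at means of 4.91, 4.23 and 2.16 UMIs. A value of 1 is what counting alone gives, and the measure rises with the mean, so it ranks neither genes nor libraries. HLA-B stood at 1.43, 1.42 and 1.17 and HLA-C at 1.32, 1.26 and 1.14. Spearman's rho of B2M with HLA-B was 0.29 over 15699 not stretched top cells, 0.26 over 18916 stretched top cells and 0.11 over 1709 bottom cells. For B2M with HLA-C it was 0.26, 0.21 and 0.06, and for HLA-B with HLA-C 0.18, 0.16 and 0.08. These rho values are descriptions, over cells that share a library and a fixed depth.

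The genes whose thinned level was most like the sum of the 9 were sought among 3063 genes with a mean of at least 50 CPM, by Pearson's r within each library, averaged over the 3 libraries. IFI6 (mean r 0.40), IFI27 (0.31), IFITM3 (0.29) and ISG15 (0.28) came first, all of them interferon-induced genes. MT-CYB and MT-CO2, mitochondrially encoded subunits of the respiratory chain, had 0.24 and 0.20. LGALS3BP, a secreted galectin-binding glycoprotein, had 0.23, SAT1, a polyamine acetyltransferase, 0.20 and S100A6, a calcium-binding protein, 0.20. In the bottom library alone r was 0.23 for IFI6 and 0.15 for IFI27.

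Cells were therefore grouped by their interferon score, the UMIs of 41 interferon-induced genes per thinned cell, none of them 1 of the 9 genes. The classes are ranges of a score and not cell types. The median score was 24 in not stretched top cells, 18 in stretched top cells and 5 in bottom cells. In not stretched top cells the 9 genes summed to 710 CPM at a score of 0 to 2 (145 cells), 1380 CPM at 3 to 9 (1393 cells), 2199 CPM at 10 to 24 (6325 cells) and 3417 CPM at 25 or more (7836 cells). In stretched top cells they summed to 941, 1353, 2039 and 3192 CPM, in 265, 3224, 9487 and 5940 cells. In bottom cells they summed to 878, 1163 and 1847 CPM in the first 3 classes, with 328, 1240 and 133 cells, and the top class held fewer than 50 cells. The sum was higher in each class than in the one before, in all 3 libraries.

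Each of the 9 genes was higher at high scores in both top libraries. From the class of 3 to 9 to that of 25 or more, HLA-B was 2.43-fold higher in not stretched top cells (2.26 to 2.63) and 2.43-fold in stretched top cells (2.31 to 2.57), and B2M 2.66-fold and 2.46-fold. TAP1 was 3.02-fold and 2.84-fold higher, and NLRC5 2.28-fold and 2.82-fold. HLA-F was 4.29-fold (3.07 to 6.16) and 2.56-fold (2.03 to 3.27) higher. TAPBP had the smallest step of the 9 genes, 1.41-fold (1.23 to 1.61) and 1.52-fold (1.37 to 1.68).

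**Figure D4:**
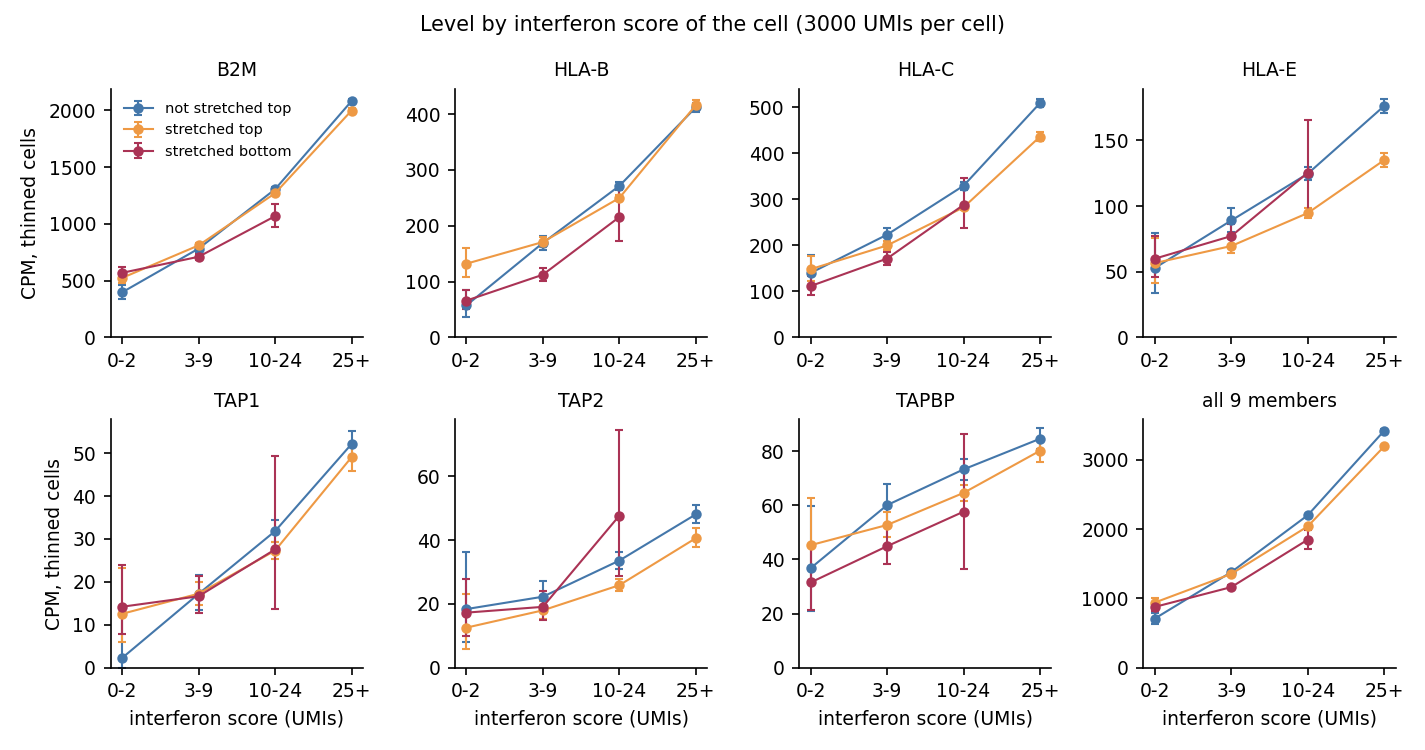
Level (CPM in cells thinned to 3000 UMIs, linear axes from 0) of 7 genes and of the sum of all 9 by interferon score class, for each library, with exact Poisson 95% intervals; classes of fewer than 50 cells are not drawn. The summed level climbs with the score in all 3 libraries (not stretched top 710 to 3417 CPM), and the bottom library's points lie near those of the top libraries in the same class.

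Within a score class the bottom and stretched top libraries lay much closer than the 1.91-fold found over all cells. The sum of the 9 genes was 1.07-fold lower in bottom than in stretched top cells at a score of 0 to 2 (0.970 to 1.18), 1.16-fold lower at 3 to 9 (1.12 to 1.20) and 1.10-fold lower at 10 to 24 (1.03 to 1.19). For B2M the factors were 0.922 (0.810 to 1.05), 1.14 and 1.19. HLA-B was 2.00-fold lower in bottom cells (1.45 to 2.77) at 0 to 2, 1.52-fold (1.37 to 1.70) at 3 to 9 and 1.16-fold (0.937 to 1.45) at 10 to 24. This was not stable when cells were thinned to 8000 UMIs and classes scaled to match. That step also leaves out cells of under 8000 UMIs, so depth and the set of cells changed together. The stretched top class of 0 to 2 then held 134 cells, against 265 at 3000 UMIs. At 0 to 2 HLA-B then stood at 85.6 CPM (72.9 to 99.9) in bottom and 61.6 CPM (47.6 to 78.3) in stretched top cells. The direction thus turned there for HLA-B. At 3 to 9 it stood at 112 against 133 CPM. The sum of the 9 genes at 8000 UMIs was 892 CPM (850 to 936) in bottom and 808 CPM (755 to 863) in stretched top cells at 0 to 2, 1148 against 1216 CPM at 3 to 9, and 2022 CPM (1917 to 2132) against 1915 CPM (1903 to 1927) at 10 to 24. Which library was lower within a score class was thus not stable for the sum, whereas the classes stayed far closer than all cells. For TAP1 at 3 to 9 the factor was 1.04 (0.770 to 1.41), and for HLA-E 0.902 (0.784 to 1.04), so the intervals of both include no difference. NLRC5 had too few UMIs per class to compare, with an interval of 0.724 to 2.504 at 3 to 9. Between the top libraries the sum in stretched cells was higher at 0 to 2, at 941 against 710 CPM, and 1.02-fold lower at 3 to 9 (0.988 to 1.05). It was 1.08-fold lower at 10 to 24 (1.07 to 1.09) and 1.07-fold lower at 25 or more (1.06 to 1.08), against 1.19-fold over all cells. A class fixes the observed score and not the cell's true level, bottom cells lie at the lower end of each range, and how far the score accounts for the difference over all cells was not tested.

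Cell cycle, depth and mitochondrial share also differed between libraries. Of thinned bottom cells 53.8% were called G2/M and 27.4% G1, against 35.3% and 48.7% of stretched top cells and 30.7% and 50.9% of not stretched top cells. In each library the 9 genes summed highest in cells called G1: 2984 CPM in not stretched top, 2444 CPM in stretched top and 1345 CPM in bottom cells. In cells called G2/M they summed to 2543, 2188 and 1114 CPM. TAP2 ran the other way in the top libraries, though not in the bottom library. It stood at 34.1 CPM in G1 and 47.9 CPM in G2/M without stretch, and at 24.5 and 34.7 CPM in stretched top cells. TAP1 was higher in G2/M than in G1 only in not stretched top cells, at 43.4 against 39.9 CPM. Within a phase the bottom cells remained below the stretched top cells, 1.82-fold in G1 (1.74 to 1.90), 1.71-fold in S (1.61 to 1.83) and 1.96-fold in G2/M (1.89 to 2.04). For HLA-E the difference was smaller, at 1.12-fold in G1 (0.953 to 1.33) and 1.31-fold in G2/M (1.13 to 1.53).

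**Figure D5:**
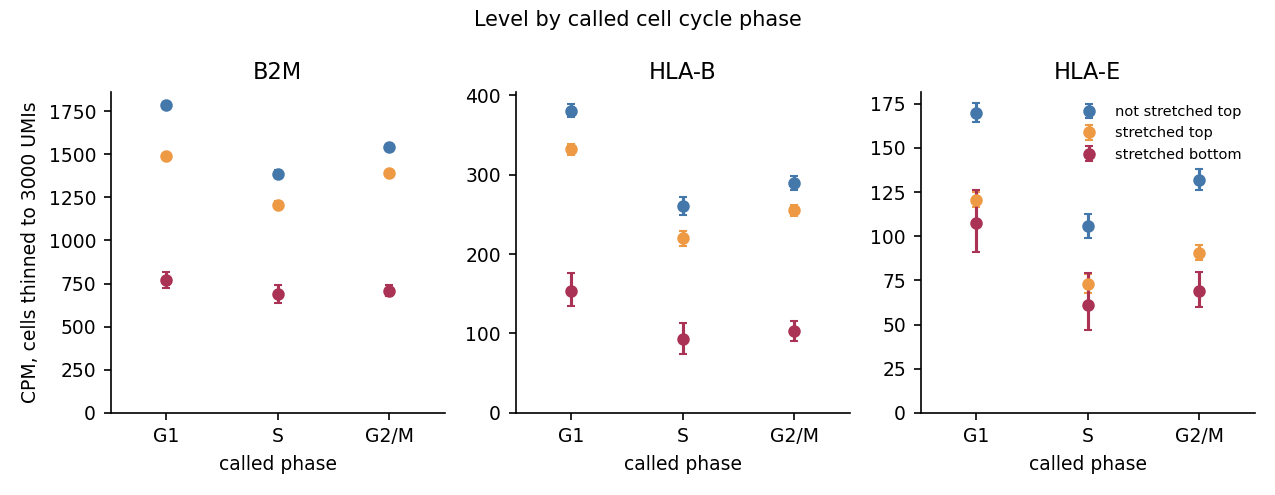
Level (CPM in cells thinned to 3000 UMIs, axes from 0) of B2M, HLA-B and HLA-E by called cell cycle phase and library, with exact Poisson 95% intervals. G1 cells were highest in each library for all 3 genes, and for B2M the bottom library lay below both top libraries in every phase, while for HLA-E its G1 interval overlapped that of the stretched top library.

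In cells of 20000 to under 60000 UMIs, where the libraries overlap in depth, the 9 genes summed to 1158 CPM in bottom and 1834 CPM in stretched top cells, 1.58-fold lower (1.56 to 1.602). Depth was not matched within this range. Over all kept cells the 95th percentile of stretched top cells was 21812 UMIs and the median of bottom cells 40387. In cells of 5000 to under 20000 UMIs the factor was 1.55 (1.499 to 1.59), and in cells of 1000 to under 5000 UMIs, where the median bottom cell had only 2.88% mitochondrial UMIs against 11.2%, it was 2.91 (2.69 to 3.16). HLA-E stood at 96.2 CPM in bottom and 95.4 CPM in stretched top cells of 5000 to under 20000 UMIs. In that range the factor was 1.01 for TAP2 (0.817 to 1.26) and 1.03 for TAPBP (0.891 to 1.20). HLA-B, HLA-C, HLA-F, B2M, TAP1 and NLRC5 were lower in bottom cells there, each with an interval above 1. The sum was higher in cells of higher mitochondrial share in every library. In stretched top cells it was 1517 CPM under 5%, 1956 CPM at 5% to 10% and 2355 CPM above, and in bottom cells 1055, 1292 and 1608 CPM. Within these ranges bottom cells were lower by 1.44-fold, 1.51-fold and 1.46-fold, all smaller than 1.91-fold. The sum was thus lower in bottom than in stretched top cells in each of these ranges and phases, by a factor that depended on the range. Single genes did not all follow it: at a mitochondrial share of 10% to 20%, HLA-E stood at 126 CPM in bottom and 106 CPM in stretched top cells (factor 0.839, 0.748 to 0.945), and the intervals for TAP2 (0.675 to 1.06) and TAPBP (0.832 to 1.14) included 1.

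The genes that supply and load peptides did not move as a block between the bottom and stretched top libraries. Of 21 such genes 17 had at least 10 CPM, and 3 were called lower and 2 higher (of all tested genes 11.0% and 7.93% were), with a median of 0.07. PSMB9, an immunoproteasome subunit, stood at 9.69 against 47.4 CPM, 4.89-fold lower (4.53 to 5.27). PSME1, a subunit of the proteasome activator PA28, was 1.84-fold lower, and the third, IRF1, an interferon-induced transcription factor that is in this list and in that of promoter factors, 1.96-fold lower. CALR, the chaperone calreticulin of the loading complex, was 1.63-fold higher (1.61 to 1.65), at 703 against 432 CPM. PSMB10, another immunoproteasome subunit, was 3.36-fold higher (3.19 to 3.54), at 41.5 against 12.3 CPM, but 29.2% of its end windows also occur in the overlapping gene AC040162.1, so its counts are uncertain. Between the top libraries 0 of these 17 genes were called, where 0.592% of all genes were called lower. Against the not stretched top library the bottom library had 6 lower and 1 higher of 17, where 20.7% and 6.80% of all genes were called.

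Among factors known from class I promoters, 13 of 16 were measured, with a median of −0.07 between bottom and stretched top. Of these 13 IRF1 alone was called (lower), where 11.0% of all tested genes were called lower. Of 19 interferon receptor and signalling genes 15 were measured, with 5 called lower and 1 higher (of all tested genes 11.0% and 7.93% were) and a median of −0.24. STAT2, a transcription factor of the type I interferon response, stood at 10.8 against 25.8 CPM, 2.39-fold lower (2.22 to 2.58), and STAT3, best known from cytokine signalling through gp130, at 30.3 against 61.04 CPM, 2.01-fold lower (1.93 to 2.10). USP18, a negative regulator of the type I receptor, was 5.9998-fold lower, although 34.4% of its end windows also occur in its copy USP41. The receptor chain gene IFNGR2 was 1.53-fold higher. Between the top libraries 0 of 17 signalling genes were called, with a median of −0.29 against −0.16 for all genes. Of promoter factors 0 of 14 were called there, where 0.592% of all tested genes were called lower. Of the 41 genes of the interferon score, 31 were measured and 29 called lower in the bottom against the stretched top library, where 11.0% of all tested genes were. Their median was −2.14, and the 41 genes summed to 1691 CPM in the bottom and 6699 CPM in the stretched top library. Between the top libraries 4 of 32 were called lower, where 0.592% of all genes were, with a median of −0.39.

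Other lists of immune recognition had few genes at 10 CPM. Of 13 MHC class II genes 1 reached 10 CPM, HLA-DMA, at 12.6 CPM in the bottom and 16.4 CPM in the stretched top library. The 13 genes summed to 49.5 CPM without stretch, 38.7 CPM in stretched top cells and 20.8 CPM in bottom cells. Of 7 class I-like genes in the matrices 1, the protein C receptor gene PROCR, reached 10 CPM, and it was not called. Of 20 ligands of natural killer and T cell receptors 8 were measured, with 0 lower and 2 higher in the bottom than in the stretched top library, where 11.0% and 7.93% of all genes were called. MICA, a ligand of the activating receptor NKG2D, stood at 57.7 against 38.0 CPM, 1.52-fold higher (1.46 to 1.57), and ULBP2, another NKG2D ligand, at 17.1 against 7.89 CPM, 2.17-fold higher (2.02 to 2.34). Of end windows, 29.8% of those of ULBP2 occur in related genes and 3.36% of those of MICA in MICB. Of 11 class I turnover genes in the matrices 9 were measured, with 0 called in either direction and a median of 0.05.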

How the data were processed

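RNA was measured in single cells of 3 libraries, made per the labels' protocols with the Chromium Single Cell 3′ kit from cells sorted for GFP. The deposited files give unnormalised UMI counts by gene and barcode. They were made with Cell Ranger 7.0.0, per the file headers, on hg38, per the submitters' processing notes. Each listed barcode had at least 500 UMIs, 26106, 25169 and 3513 barcodes in the order not stretched top, stretched top, stretched bottom.

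A cell was kept if it had 500 genes, 1000 UMIs and no more than 20% mitochondrially encoded UMIs. CPM is a gene's UMIs over all kept cells relative to the UMIs of all genes there. A count of 0 allows up to 0.0141, 0.0142 and 0.0391 CPM (3 counts). Ratios are called at 1.5-fold on log2(CPM + 1), over all genes reaching 10 CPM in at least 1 of the libraries compared. With 1 library per group there is no test. The 95% intervals are exact Poisson for CPM, exact conditional binomial for fold sizes (CPM over CPM) and Clopper-Pearson for shares, and cover counting error only. No doublets were removed. Cells were thinned to 3000 UMIs for shares, scores, correlations and phases, and phases were called with scanpy 1.11.5.

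All 9 genes are described in every comparison, with the listed pathway genes past 1.5-fold (up to 4 per list) and the 10 genes most like the sum. Some genes that this rule names are not reported here. The genes and lists were chosen with earlier results of these data known, and the ranges of depth and mitochondrial share and the end windows were chosen after seeing the data. Promoters came from RefSeq (GRCh38.p14) and gene positions from GENCODE release 29. Ratios and intervals were checked on simulated counts. Alternatives were other cell filters, scalings, cell weights, depths, phase weights, added CPM, minimum levels and thresholds. R 4.3.3 with edgeR 4.0.16 gave the TMM factors. Python was version 3.11.15, pandas 2.3.3, scipy 1.17.1, numpy 2.4.6 and matplotlib 3.10.9.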

Additional observations from a re-analysis of the deposited data

How the results depend on the processing

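No paired analysis was possible because each group had 1 library, and for the same reason no replicate could be left out. In stretched top against not stretched top, the count of genes past 1.5-fold went from 1 (HLA-F) to 0 without a cell filter, under TMM scaling, under median of ratios scaling, with totals without mitochondrial and ribosomal protein genes, with 5 CPM added, with a minimum of 50 CPM and with a 2-fold threshold. In stretched bottom against stretched top it went from 8 to 4 with a minimum of 50 CPM, where 5 genes were tested and 6.95% of all genes were called lower. With a 2-fold threshold the count there was 3, where 3.38% of all genes were called lower. Otherwise the count lay between 6 and 9. The share of all genes called lower then ran from 7.39% with equal cell weights to 17.3% with totals without mitochondrial and ribosomal protein genes. In stretched bottom against not stretched top it went from 9 to 5 of 5 tested with a minimum of 50 CPM, where 12.7% of all genes were called lower. In cells thinned to 8000 UMIs, the sum of the 9 genes in the second score class was 1.06-fold lower in bottom than in stretched top cells, against 1.16-fold at 3000, and it was higher in bottom cells of the first class (892 against 808 CPM) and of the third class (2022 against 1915 CPM), where it was lower at 3000. TAP2 in stretched bottom against stretched top did not reach 1.5-fold with TMM or median of ratios factors, in thinned cells, in cells of 20000 to 60000 UMIs, with equal phase weights and with 5 CPM added, and HLA-E passed it with totals without mitochondrial and ribosomal protein genes. The log2 ratio of NLRC5 in that comparison is shrunk by the added CPM, at −1.86 with 0.1 CPM added and −0.98 with 5. Its fold of 3.73 has no CPM added. The median of all genes moved from −0.16 to 0.02 under TMM and 0.03 under median of ratios scaling in the first comparison, and from −0.18 to 0.05 and 0.09 in the third. All 9 genes lay below the median of all genes tested in each comparison and under each of these settings. The cause of these shifts was not tested, except that a higher minimum tests fewer genes. The bottom library holds 1951 cells, and 478 UMIs of HLA-F and 214 of NLRC5, so classes of bottom cells carry wide intervals for these genes.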
